A study of Homo sapiens with 6 samples.

Results

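The 10 genes described here encode transcription factors and cofactors of red cell precursors and blood stem cells: GATA1, GATA2, KLF1, TAL1, NFE2, GFI1B, LMO2, ZFPM1, LDB1 and MYB. They were chosen by name, as the rows of the deposited table that carry these symbols, and all 10 were found among its 28847 genes. All 10 also passed the filter on low values (10 or more normalized reads in 3 or more libraries), which left 15676 genes for testing. The table comes from RNA sequencing of 6 libraries of human cells labelled as THP-1, an established monocytic leukaemia line. The 3 control libraries were labelled as THP-1 alone, and the 3 others, called RBP4 libraries, as receiving recombinant human RBP4 protein; RBP4 carries retinol in plasma. The series speaks of M0 (unpolarized) macrophages. Dose and time were not given in the sources used here, nor was any statement that the libraries of a group came from separate cultures, so the p-values measure only the spread between these libraries, which may be technical.

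GATA1 and GATA2 are zinc finger proteins that bind the same short GATA word in DNA. GATA2 is known for maintaining stem and progenitor cells and GATA1 for driving red cell, megakaryocyte and mast cell maturation, partly through its cofactor ZFPM1 (also called FOG1). TAL1, LMO2 and LDB1 join GATA1 or GATA2 in a complex in which LMO2 and LDB1 serve as bridges without binding DNA themselves, and KLF1, NFE2, GFI1B and MYB act beside it on globin, red cell and progenitor genes.

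The promoter sequences of these genes show which of them carry the GATA word close to the start site. RefSeq promoter windows on GRCh38.p14, each 300 bases long (250 before and 50 after the start), were matched by symbol for 8 of the 10 genes, 11 windows in all, with none matched for NFE2 and LMO2. The GATA word was searched on both strands in 4 forms, of which the first is AGATAA, the next is AGATAG, the third is TGATAA and the last is TGATAG. It was present in 4 of the 11 windows, and in 25.0% of the 35116 windows of the whole table. These 4 windows belonged to KLF1, TAL1 and GFI1B, genes that were higher in the RBP4 libraries, GFI1B with a call that rested on 1 library. Whether the word goes with the direction of change was not tested. The windows of GATA1, GATA2, LDB1 and MYB held none, as did that of ZFPM1, which was higher too, and the second of TAL1; sequence outside these windows was not searched. A match describes letters and was not tested as a binding site. Printed 5′ to 3′ on the strand of the gene, with GATA words in capitals, are the windows of KLF1 (chr19:12887152-12887451, minus strand), TAL1 (chr1:47232286-47232585, minus strand) and GFI1B (chr9:132978444-132978743, plus strand), because they carry the word, and the window of GATA2 (chr3:128493152-128493451, minus strand), the gene with the largest fall among the 10, for contrast.
KLF1: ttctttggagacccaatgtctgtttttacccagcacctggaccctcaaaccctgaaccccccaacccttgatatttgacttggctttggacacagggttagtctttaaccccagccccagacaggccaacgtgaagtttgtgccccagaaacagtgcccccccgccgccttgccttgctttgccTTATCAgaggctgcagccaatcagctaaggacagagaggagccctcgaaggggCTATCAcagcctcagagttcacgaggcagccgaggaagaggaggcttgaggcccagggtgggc
TAL1: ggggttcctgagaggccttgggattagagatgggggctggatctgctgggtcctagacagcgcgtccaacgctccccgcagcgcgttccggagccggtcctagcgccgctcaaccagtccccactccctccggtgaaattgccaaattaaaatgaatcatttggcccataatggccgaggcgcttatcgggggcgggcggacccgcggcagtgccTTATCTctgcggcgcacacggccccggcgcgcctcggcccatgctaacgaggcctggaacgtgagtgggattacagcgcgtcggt
GFI1B: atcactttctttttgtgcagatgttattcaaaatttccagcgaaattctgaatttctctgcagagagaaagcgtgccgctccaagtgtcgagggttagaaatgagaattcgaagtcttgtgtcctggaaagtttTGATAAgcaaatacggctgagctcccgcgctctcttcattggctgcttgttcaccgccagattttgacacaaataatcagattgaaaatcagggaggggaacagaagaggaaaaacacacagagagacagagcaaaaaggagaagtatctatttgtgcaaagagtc
GATA2: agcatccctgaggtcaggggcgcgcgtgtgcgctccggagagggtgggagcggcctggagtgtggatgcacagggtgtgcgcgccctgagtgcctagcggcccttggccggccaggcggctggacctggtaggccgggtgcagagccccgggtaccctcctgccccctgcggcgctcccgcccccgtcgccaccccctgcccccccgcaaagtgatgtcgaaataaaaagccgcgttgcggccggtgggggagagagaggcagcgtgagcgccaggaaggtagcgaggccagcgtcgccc
In KLF1 the words began 66 and 13 bases before the start site, in TAL1 35 bases before it and in the GFI1B window shown 116 bases before it. The other GFI1B window (chr9:132945281-132945580) held 1 word, 3 bases after the start. The windows also differed in base composition: G and C made up 57.0% of the KLF1 window, 64.3% of the TAL1 window, 42.3% of the GFI1B window and 72.3% of the GATA2 window, against a median of 58.7% over all windows. A CACCC box, the type of site that KLF1 binds (searched as CCNCNCCC on both strands), was in 8 of the 11 windows and in 56.2% of all windows. The word CAGATG, an E-box that TAL1 binds with its partners, was in 2 of the 11 and in 14.7% of all, and the NF-E2 core TGANTCA was in 1 of the 11 and in 7.71% of all. Matches of different words may share bases.

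Recovered from the deposited values, the libraries held between 15202000 and 16420517 reads each. At that depth a count of 0 allows up to 3 reads, or between 0.183 and 0.197 CPM (reads per 1000000 reads of the library). These limits cover counting error only. Mitochondrially encoded genes took 5.90% to 6.10% of reads in the control libraries and 7.58% to 7.69% in the RBP4 libraries, and their part in the differences reported here was not tested. The label of a monocytic line was not borne out by its markers. Of 18 monocyte and macrophage markers, 16 were analysed, 3 (FCGR2A, CD33 and CTSS) reached 10 CPM in all 6 libraries and 10 stayed under 1 CPM in every library, CD14, CD68 and CSF1R among them. Of the 6 that were tested between the groups, 2 rose, 2 fell and the other 2 did not pass. Over all genes tested, 24.5% were raised and 26.1% lowered. The summed level of the 16 was 187 to 194 CPM in the control and 189 to 198 CPM in the RBP4 libraries. By contrast, all 10 transcription factor genes reached 10 CPM in all 6 libraries, the lowest value being 22.1 CPM (ZFPM1), and 31 of 39 analysed red cell genes did so. Red cell genes that did not, named after their values were seen, included HBB, AHSP and SLC4A1. Their control and RBP4 means were 0.322 and 0.0616 CPM, 2.62 and 2.91 CPM, and 1.46 and 2.05 CPM. Of 14 analysed transcription factors of monocytes and granulocytes, 3 reached 10 CPM in all 6 libraries (CEBPB, SPI1 and EGR1). That level was reached by none of 6 markers for T and NK cells and none of 2 for B cells. Nor was it reached by any of 5 for mast cells and basophils or of 5 for fibroblasts and endothelium. Reaching it were 2 of 4 for epithelium (KRT19 and EPCAM), 4 of 13 for megakaryocytes and 8 of 15 for stem and progenitor cells. CD34, the defining surface marker of blood stem cells, had 0 reads in all 3 control libraries and 0.0406 CPM on average in the RBP4 libraries. The groups are therefore named by their labels throughout. In such bulk RNA, fewer cells of a type and less RNA per cell cannot be told apart.

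Per kilobase of exon, which allows genes of different length to be compared, GATA1 was the most abundant of the 10 in both groups. Its mean level was 2113 ± 55.9 normalized reads per kilobase in the control and 2159 ± 14.8 in the RBP4 libraries (mean ± SD, n = 3 libraries per group). Normalized reads are the reads of a gene after the authors' scaling of each library. LDB1 followed in the control libraries with 1556 ± 113, then NFE2 with 1273 ± 14.8 and KLF1 with 1249 ± 35.9, and the libraries of NFE2 and KLF1 overlapped. MYB stood at 931 ± 16.5, GATA2 at 671 ± 8.56, LMO2 at 486 ± 13.3 and TAL1 at 355 ± 6.18 normalized reads per kilobase. GFI1B (122 ± 2.77) and ZFPM1 (64.6 ± 5.08) were the least abundant. The order of neighbours other than NFE2 and KLF1 was the same in every control library. In the RBP4 libraries the order differed for KLF1 and for GATA2. KLF1, at 1482 ± 55.2, stood above NFE2 (1135 ± 10.9) in every library. The ranges of KLF1 and LDB1 (1439 ± 21.9) overlapped, but within each RBP4 library KLF1 was the higher. The values of KLF1 and LDB1 were 1455.65 and 1455.49 in library 1, 1546 and 1448 in library 2, and 1445 and 1414 in library 3. GATA2 dropped to 508 ± 7.81 and its libraries overlapped with those of LMO2 (509 ± 13.0).

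**Figure D1:**
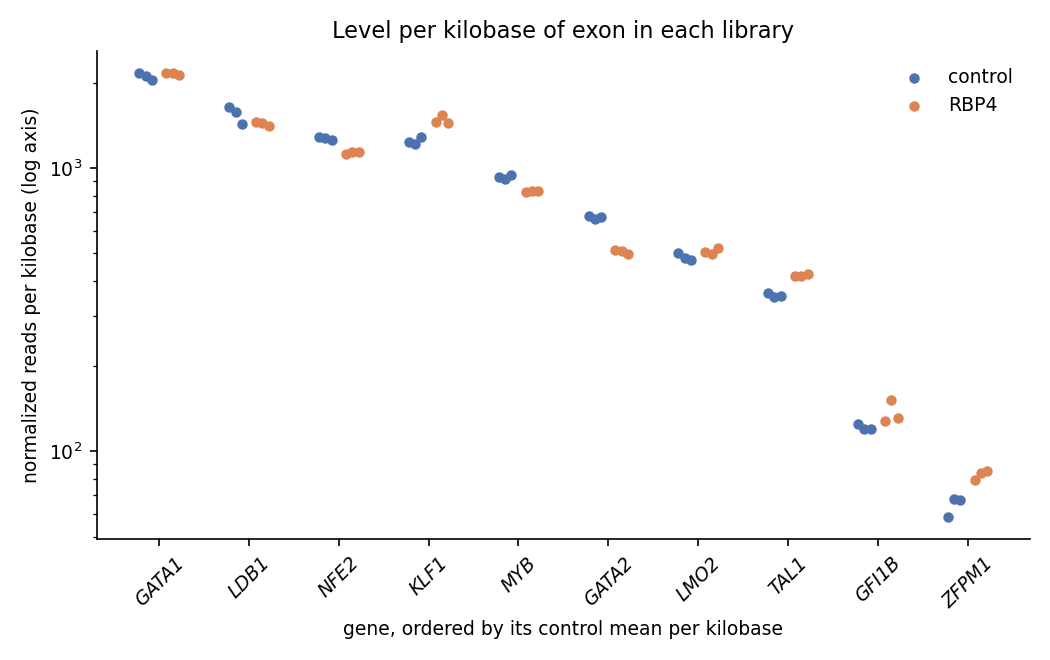
Normalized reads per kilobase of exon (log axis) of the 10 genes, ordered by their control mean, with 1 point for each of the 3 control (blue) and 3 RBP4 (orange) libraries. GATA1 was the highest in both groups and ZFPM1 the lowest, and GATA2 and LMO2 overlapped only in the RBP4 libraries.

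The comparison of the groups asked which of these factors differed after the cells were given RBP4. KLF1, TAL1, ZFPM1 and GFI1B rose, GATA2, MYB, NFE2 and LDB1 fell, and GATA1 and LMO2 did not pass the test. All differences were small: the largest rise was 1.28-fold (ZFPM1), the largest fall 1.32-fold (GATA2), and 0 of the 10 reached 2-fold. The test was limma's moderated test on log2(normalized reads + 1) across all genes with Benjamini-Hochberg adjustment, two-sided, with a threshold of 0.05. It called 8 of the 10 genes, 4 raised and 4 lowered, where 50.6% of all genes tested were called, 24.5% raised and 26.1% lowered. Among genes with at least 50 normalized reads in 3 libraries, a level that all 10 exceeded, 58.3% were called, 26.0% raised and 32.3% lowered. The median log2 fold change was 0.050 over the 10 genes and -0.0021 over all genes tested, and the median size of change irrespective of direction was 0.17 over the 10 and 0.23 over all genes tested. By control mean the 10 lay between percentiles 54.1 (ZFPM1) and 97.0 (MYB) of the genes tested, so these medians compare genes of unlike level. For 7 of the 10 genes all RBP4 values lay on 1 side of all control values, above for 4 and below for 3; this held for 56.2% of all genes tested, 27.3% above and 28.9% below. In the authors' deposited table, all but GATA1, LMO2 and GFI1B, 7 of the 10, had an adjusted p under 0.05. Of all its 28847 genes, 5931 (20.6%) did. That base includes the genes removed here by the filter on low values, so the share cannot be set beside those above. Scaling the libraries to equal total reads in place of the authors' size factors moved the median of all genes by 0.068 and the raised share of all calls from 48.4% (3838 raised and 4096 lowered) to 61.7% (4821 and 2991). With that scaling 6 of the 10 were raised and 3 lowered.

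**Figure D2:**
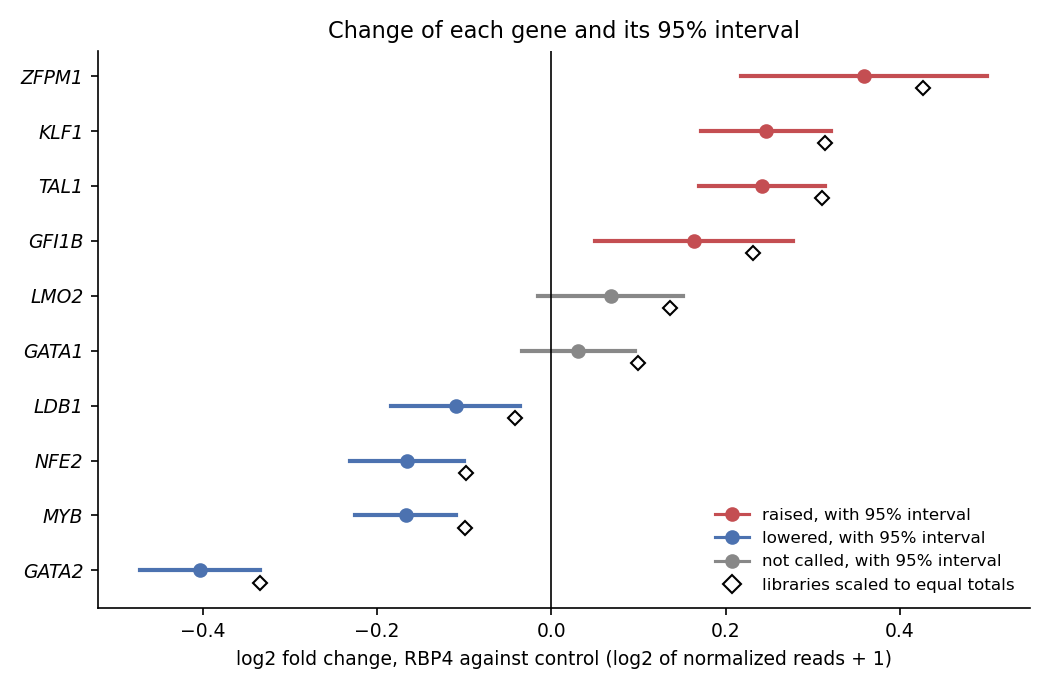
Log2 fold change of each gene between RBP4 and control libraries, with its 95% interval (limma), coloured by call; open diamonds give the value with libraries scaled to equal totals. The 4 raised genes lie between 0.16 and 0.36 and the 4 lowered ones between -0.40 and -0.11; the diamonds of GATA1 and LMO2 lie further right, at 0.099 and 0.14, and that of LDB1 nearer 0, at -0.042.

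GATA1 (ENSG00000102145, chromosome X, 48786554 to 48794311, plus strand, on GRCh38) barely differed between the groups. It had 3254, 3170.5 and 3086 normalized reads in control libraries 1, 2 and 3 and 3244, 3257 and 3213 in RBP4 libraries 1, 2 and 3. The RBP4 values lay within or just above the range of the control values, so the groups overlapped. The log2 fold change was 0.031 (SE 0.033, adjusted p = 0.448), with a 95% interval of -0.034 to 0.096. With the libraries scaled to equal totals it was 0.099 and passed the test (adjusted p = 0.00876, alternatives spanned 0.00876 to 0.812).

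GATA2 (ENSG00000179348, chromosome 3, 128479427 to 128493185, minus strand) fell more than any other of the 10. Its normalized reads were 3032, 2956 and 2991 in the control libraries and 2284, 2283 and 2223 in the RBP4 libraries. All 3 RBP4 values were below all 3 control values, and the gap was far wider than the spread within either group. The mean went from 2993 ± 38.2 to 2264 ± 34.8, with -0.40 as log2 fold change (SE 0.034, adjusted p = 2.7e-16), and it was lowered under all 14 alternatives. GATA2-AS1, a non-coding gene on the opposite strand whose span overlaps that of GATA2 without shared exon bases, went from 464 ± 31.7 to 527 ± 10.2 normalized reads (log2 fold change 0.18, adjusted p = 0.0181). It was singled out after its values were seen.

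GATA2 fell while GATA1 did not pass the test, and the ratio of the pair shifted. How much of the shift came from each gene was not tested. The log2 ratio of GATA1 to GATA2 normalized reads, not corrected for length, was 0.10, 0.10 and 0.045 in the control and 0.51, 0.51 and 0.53 in the RBP4 libraries. A ratio within a library does not depend on how libraries are scaled. All RBP4 ratios lay above all control ratios, a difference of 0.43 between the means. With 3 libraries against 3, the exact two-sided permutation test cannot give less than 0.1, and it gave 0.1 (0.2 after adjustment over the 4 ratios computed).

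ZFPM1 (ENSG00000179588, chromosome 16, 88453317 to 88537016, plus strand), the GATA1 cofactor, had the largest rise and the lowest level of the 10. Control libraries 1, 2 and 3 held 359, 414 and 412 normalized reads and the RBP4 libraries 484, 514 and 519.8. The groups did not overlap, and control library 1 was the lowest of all. From 395 ± 31.1 to 506 ± 19.0, the log2 fold change was 0.36 (SE 0.071, adjusted p = 1.8e-05).

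**Figure D3:**
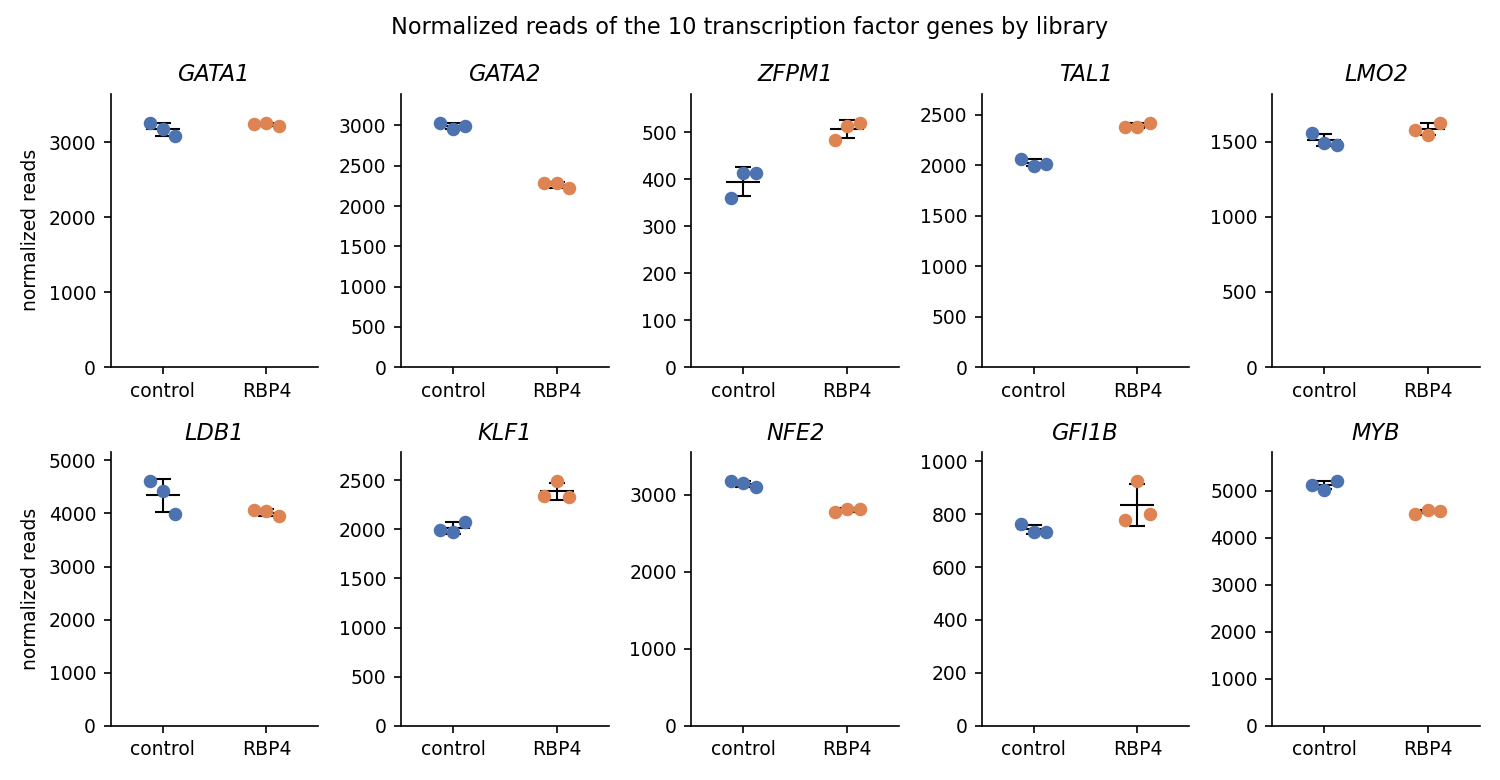
Normalized reads of the 10 genes in each control (blue) and RBP4 (orange) library on axes that start at 0, with the group mean and SD in black. The 3 RBP4 libraries sit apart from the 3 control libraries for GATA2, ZFPM1, TAL1, KLF1, NFE2, GFI1B and MYB and overlap with them for GATA1, LMO2 and LDB1.

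Of the bridging complex, TAL1 rose, LMO2 did not pass the test and LDB1 was lowered by a small amount that depended on single libraries. TAL1 (ENSG00000162367, chromosome 1, 47216290 to 47232220, minus strand), the DNA-binding helix-loop-helix member, had 2062, 1992 and 2016 normalized reads in the control and 2378, 2379 and 2419.9 in the RBP4 libraries. The groups did not overlap. From 2023 ± 35.2 to 2392 ± 23.8, its log2 fold change was 0.24 (SE 0.036, adjusted p = 5.2e-08), and it was raised under all 14 alternatives. The library kit does not mark strand, and 14.8% of the exon bases of TAL1 are shared with AL135960.1, an opposite-strand gene that went from 70.0 ± 6.04 to 165 ± 17.8 normalized reads (log2 fold change 1.22, adjusted p = 2.0e-11), so reads of that stretch cannot be told apart.

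LMO2 (ENSG00000135363, chromosome 11, 33858576 to 33892289, minus strand), the LIM-domain bridge, had 1557, 1493 and 1479 normalized reads in the control and 1578, 1545 and 1625 in the RBP4 libraries. Control library 1 was above RBP4 library 2, so the groups overlapped. The log2 fold change was 0.068 (SE 0.042, adjusted p = 0.169), with a 95% interval of -0.015 to 0.15. Scaled to equal totals it was 0.14 and passed (adjusted p = 0.00480, alternatives spanned 0.00480 to 0.410).

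LDB1 (ENSG00000198728, chromosome 10, 102107560 to 102120453, minus strand), which dimerizes to hold distant DNA sites together, had 4607, 4421 and 3994 normalized reads in the control and 4061, 4039 and 3946 in the RBP4 libraries. Control library 3 lay among the RBP4 values, and the groups overlapped. From 4341 ± 314 to 4015 ± 61.1, the log2 fold change was -0.11 (SE 0.036, adjusted p = 0.0121). The call was lost without control library 1 (adjusted p = 0.114), control library 2 (0.0659) or RBP4 library 3 (0.0535) and with scaling to equal totals (-0.042, adjusted p = 0.378); the alternatives spanned 1.4e-05 to 0.378. Without control library 3 the log2 fold change was -0.17.

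KLF1 (ENSG00000105610, chromosome 19, 12884422 to 12887199, minus strand), the activator of adult globin and many other red cell genes, rose. Its control values were 1989, 1970.1 and 2078 normalized reads and its RBP4 values 2345, 2490.0 and 2328. The groups did not overlap. From 2013 ± 57.8 to 2388 ± 88.9, the log2 fold change was 0.25 (SE 0.037, adjusted p = 6.7e-08), within the 95% interval of that of TAL1 (0.17 to 0.31).

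GFI1B (ENSG00000165702, chromosome 9, 132944000 to 132991687, plus strand), a repressor needed for red cell and platelet formation, rose with a call that rested on 1 library. The control values were 763, 734 and 733 normalized reads and the RBP4 values 779, 924 and 801. RBP4 library 2 stood above the other 2 RBP4 libraries, which were close to the control values without overlapping them. From 743 ± 16.9 to 835 ± 78.3, the log2 fold change was 0.16 (SE 0.057, adjusted p = 0.0131). Without RBP4 library 2 it was 0.088 (adjusted p = 0.251, alternatives spanned 0.00053 to 0.251), and in the authors' deposited table its adjusted p was 0.0878. Exons of GFI1B share 5.72% of their bases with the opposite-strand gene TSC1 (908 ± 65.4 and 1003 ± 3.24 normalized reads).

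NFE2 (ENSG00000123405, chromosome 12, 54292111 to 54301121, minus strand), the large subunit of the NF-E2 factor that acts on globin and platelet genes, fell. Its normalized reads were 3175, 3149 and 3103 in the control and 2770.4, 2813 and 2820.5 in the RBP4 libraries. The groups were well apart. From 3143 ± 36.5 to 2801 ± 27.0, the log2 fold change was -0.17 (SE 0.033, adjusted p = 1.9e-05), and it was -0.098 with scaling to equal totals.

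MYB (ENSG00000118513, chromosome 6, 135181315 to 135219173, plus strand), a factor of proliferating progenitors that is known to decline as red cells mature, fell too. It had 5129, 5019 and 5199 normalized reads in the control and 4513, 4581 and 4575 in the RBP4 libraries, and the groups did not overlap. From 5116 ± 90.7 to 4556 ± 37.6, the log2 fold change was -0.17 (SE 0.029, adjusted p = 1.6e-06), and it was -0.099 with scaling to equal totals. Its relative MYBL2, a factor of cycling cells, went from 3515 ± 69.7 to 3099 ± 42.4 normalized reads (log2 fold change -0.18, adjusted p = 2.3e-06). The log2 ratio of MYB to MYBL2 was 0.54 ± 0.050 in the control and 0.56 ± 0.024 in the RBP4 libraries, and the groups overlapped (exact permutation p = 0.7, adjusted p = 0.7 over the 4 ratios).

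Paralogs of the 10 factors, relatives with a similar protein, included genes called in either direction. Of 20 listed, 16 were analysed and 13 tested, and the test called 7 raised and 2 lowered and left 4 uncalled; their median log2 fold change was 0.36, against -0.0021 over all genes tested, of which 24.5% were raised and 26.1% lowered. LMO4, a LIM-only protein that also binds LDB1, rose from 465 ± 8.62 to 844 ± 41.2 normalized reads (log2 fold change 0.86, SE 0.060, adjusted p = 3.4e-20). The log2 ratio of LMO2 to LMO4 was 1.75, 1.65 and 1.69 in the control and 0.95, 0.91 and 0.87 in the RBP4 libraries. These did not overlap, a difference of -0.79 (exact permutation p = 0.1, the smallest possible, adjusted p = 0.2). NFE2L1 and NFE2L2, stress-responsive relatives of NFE2, rose by 0.44 and 0.36 on the log2 scale, while NFE2 itself fell. GATA5 rose from 56.3 ± 1.85 to 116 ± 13.2 normalized reads. GFI1, the relative of GFI1B in white cells, had only 67.3 ± 13.8 and 88.8 ± 5.11 normalized reads (adjusted p = 0.0318, a call lost in 5 of 14 alternatives), and the ratio of GFI1B to GFI1 overlapped between the groups (log2 ratio 3.47 ± 0.30 and 3.22 ± 0.19, exact permutation p = 0.4, adjusted p = 0.533). The paralogs that were raised include low genes: TAL2, named after its values were seen, was tested only because its RBP4 values passed the filter (3.77 ± 2.58 and 13.7 ± 1.36 normalized reads). Without RBP4 library 1, or without RBP4 library 2, 4 paralogs were raised.

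**Figure D4:**
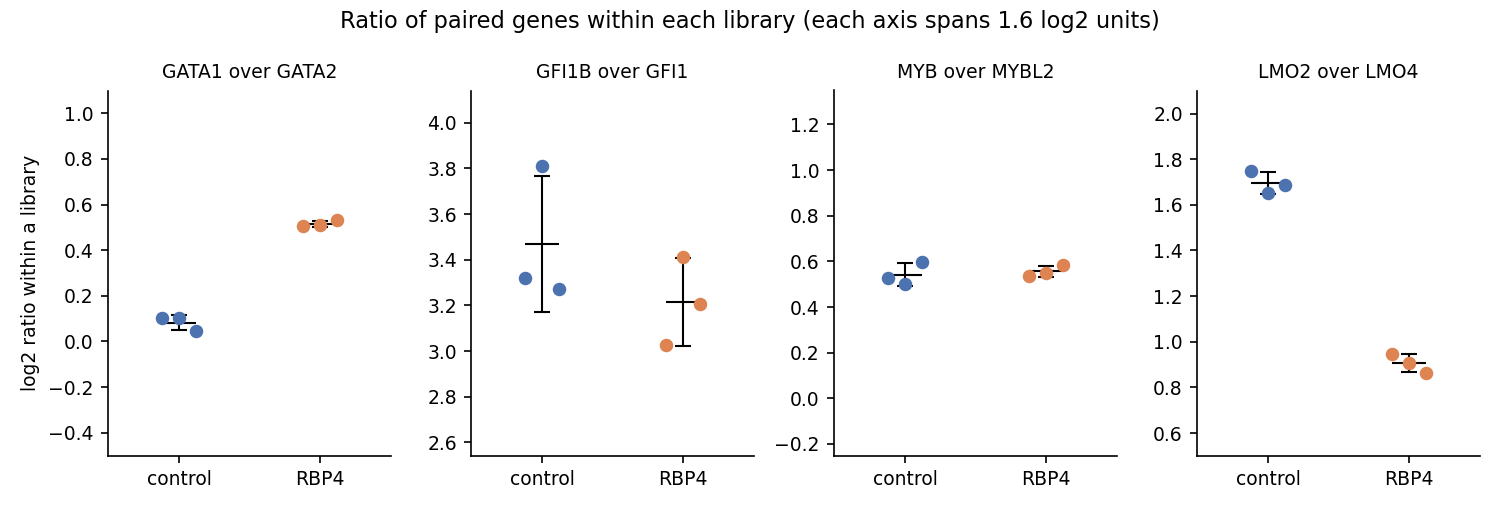
Log2 ratio of normalized reads of paired genes in each control (blue) and RBP4 (orange) library, with mean and SD; each axis spans 1.6 log2 units. GATA1 over GATA2 is higher, and LMO2 over LMO4 lower, in all 3 RBP4 libraries than in any control library, while GFI1B over GFI1 and MYB over MYBL2 overlap.

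Partners that bind DNA beside the factors or join their complexes moved in both directions. Of 20 listed, 19 were analysed and 17 tested, and 7 were called raised, 7 lowered and 3 in neither direction (median change -0.070 on the log2 scale). Over all genes tested, 24.5% were raised and 26.1% lowered. RUNX1, a stem cell and megakaryocyte factor that binds with TAL1 and GATA2, rose from 928 ± 27.0 to 1341 ± 13.0 normalized reads (log2 fold change 0.53, SE 0.047, adjusted p = 1.2e-15). BACH2, of the family that shares small MAF partners with NFE2, rose by 0.83. TCF12, an E-protein partner of TAL1, fell by 0.23 on the log2 scale and SP1, which binds GC-rich promoter sites related to those of KLF1, by 0.18. FLI1, a megakaryocyte factor singled out after its values were seen, had means of 0.345 and 0.322 normalized reads and was not tested. The number that fell was 3 with scaling to equal totals, 4 with DESeq2 and 3 without RBP4 library 2.

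Corepressors and coactivators that the factors recruit included members called in either direction. All 23 listed were tested, and 3 were called raised, 11 lowered and 9 in neither direction (median change -0.079 on the log2 scale). Over all genes with at least 50 normalized reads in 3 libraries, 26.0% were raised and 32.3% lowered, and the difference from these shares was not tested. SMARCA4, the motor of a chromatin remodelling complex, went from 7630.1 ± 196 to 6257 ± 161 normalized reads (log2 fold change -0.29, SE 0.027, adjusted p = 2.8e-14). KDM1A, the histone demethylase that GFI1B recruits, fell from 4574 ± 55.1 to 3737 ± 133 (log2 fold change -0.29, adjusted p = 1.3e-12). CHD3, a subunit of the NuRD complex that ZFPM1 binds, fell by 0.36 on the log2 scale and the deacetylase HDAC3 by 0.22. With scaling to equal totals 5 rose and 8 fell, and with edgeR 5 rose and 11 fell.

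Among regulators of globin switching and the red cell targets of these factors, calls went both ways. Of all genes tested, 24.5% were raised and 26.1% lowered. Among those with at least 50 normalized reads in 3 libraries, the shares were 26.0% and 32.3%. The difference of these lists from either pair of shares was not tested. Of 14 switching regulators, all tested, 4 were raised, 7 lowered and 3 uncalled (median change -0.15 on the log2 scale). KLF3, a repressor that competes with KLF1 at CACCC sites, rose from 1429.5 ± 33.9 to 1945 ± 23.2 normalized reads (log2 fold change 0.44, SE 0.040, adjusted p = 2.9e-15). LIN28B, an RNA-binding protein of the fetal programme, fell by 0.39 on the log2 scale, the nuclear receptor NR2C1 by 0.35 and the DNA methyltransferase DNMT1 by 0.19. The number raised was 2 with DESeq2, with no filter, and without control library 1, control library 2, RBP4 library 2 or RBP4 library 3. Of 40 listed red cell target genes, 39 were analysed and 38 tested, with 10 raised, 14 lowered and 14 uncalled (median change -0.044). TFRC, the transferrin receptor, had a log2 fold change of -0.97 (adjusted p = 1.7e-44) and CA2, a carbonic anhydrase of red cells, one of -0.96 (2058 ± 64.0 to 1056 ± 41.5 normalized reads, adjusted p = 2.2e-30). HBZ, the embryonic zeta globin, fell from 1421 ± 39.6 to 849 ± 87.6 normalized reads, a value that is uncertain where reads can be shared with its pseudogene copy, and EPOR rose by 0.96.

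**Figure D5:**
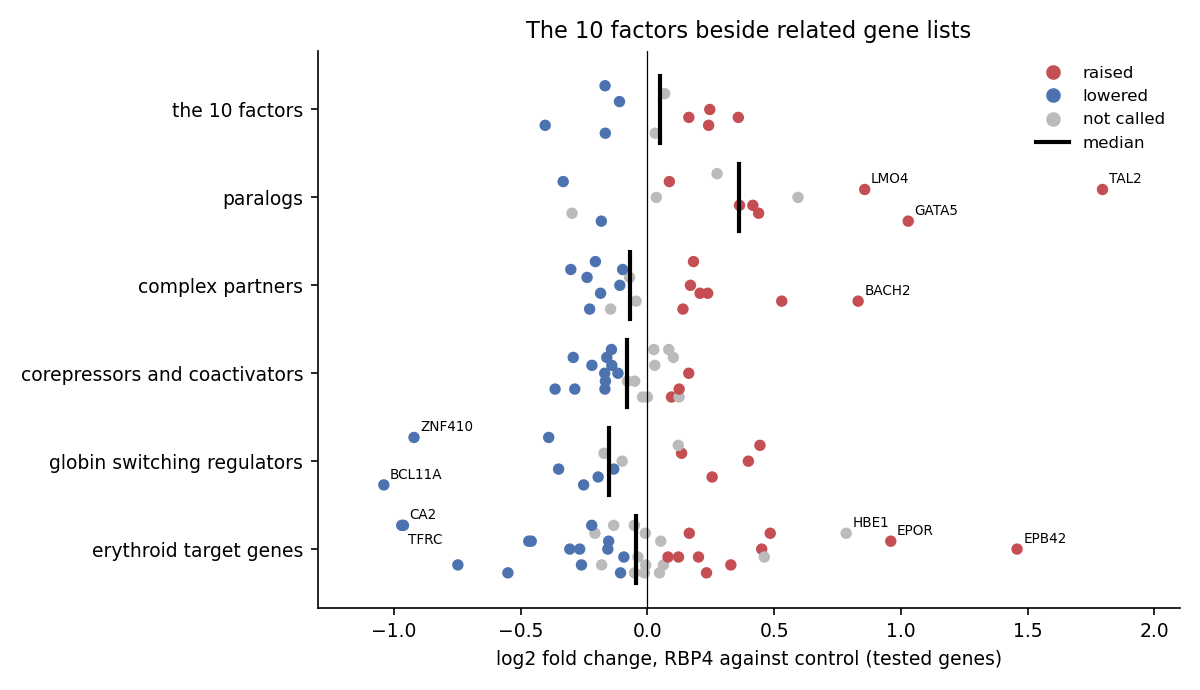
Log2 fold change (RBP4 against control) of each tested gene in the list of 10 factors and in 5 related lists, coloured by call, with the list median as a black bar; genes beyond 0.75 in either direction are named. The 10 factors lie between -0.40 and 0.36. TAL2 and EPB42 reached the filter's 10 normalized reads in 3 libraries only with their RBP4 values, and ZNF410 only with its control values.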

How the data were processed

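The members and all gene lists were chosen with earlier results of these data known. Polyadenylated RNA of 6 libraries was sequenced with a kit that does not mark strand, per the labels' protocols; the sources used here do not name an aligner or counter. The authors' single table holds, per the file headers, a normalized signal for each gene in each library beside their own p-values and log2 fold changes, deposited with it. In each library 100% of the deposited signal values were whole multiples of 1 step within 0.01 reads, the pattern that read counts leave when a library is divided by 1 factor. All 28847 genes had the start and end of GENCODE release 29 (GRCh38), and the listed length of each of the 10 genes equalled the union of its exons there.

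Because the values are not counts, the test was limma 3.58.1 (R 4.3.3), with trend and robust moderation, on log2(value + 1), in 1 fit over all genes that reached 10 in 3 or more libraries; fold changes on this scale understate those of low genes. The adjustment was Benjamini-Hochberg. The fit was also run on simulated reads in which far fewer genes differed than were called here. That run could not check the scaling of libraries where many genes differ. Alternatives were pseudocounts of 0.5 and 5, no filter, a minimum of 50, scaling to equal totals, a replicate block, leaving out each library, and edgeR 4.0.16 and DESeq2 1.42.0 on recovered reads, which called 7921 and 6510 genes. The text names all 10 members, up to 4 genes of each related list with the smallest p, the most abundant markers, and the genes of 4 ratios. No column of sample values was left unused (0 columns). 1 marker gene is not reported here.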

Additional observations from a re-analysis of the deposited data

How the results depend on the processing

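Of the 10 factors, GATA2, KLF1, TAL1, NFE2, ZFPM1 and MYB kept their direction and call under all 14 alternatives. With scaling to equal totals GATA1 (log2 fold change 0.099) and LMO2 (0.14) passed the test and LDB1 (-0.042) did not; this scaling moved the median of all genes upward by 0.068. Leaving out 1 library gave log2 fold changes of 0.088 to 0.21 for GFI1B and -0.17 to -0.066 for LDB1, with calls lost for GFI1B without RBP4 library 2 and for LDB1 as given above; the cause was not tested. The log2 ratio of MYB to MYBL2 differed by -0.0055 to 0.043 between the groups and NKG7 by -0.34 to 0.51 in the same leave-one-out fits, so their signs turned. The replicate numbers did not pair the libraries (correlation of deviations between same-numbered libraries -0.017 to 0.0037): with the replicate block 7829 genes and 8 of the 10 factors were called, against 7934 and 8 without it. Of 45 other named genes tested, 34 kept direction and call under each alternative that gave them a value (10 to 14 per gene). At this depth the 95% intervals of GATA1 and LMO2 allow changes of up to 0.096 and 0.15 on the log2 scale.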

Other observations

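Transcription factors of monocytes and granulocytes, most of them low in these libraries, were also read. Of 15 listed, 14 were analysed and 9 tested, and 3 were called raised, 2 lowered and 4 in neither direction. Over all genes tested, 24.5% were raised and 26.1% lowered. CEBPB, a factor of macrophage and stress responses, rose from 732 ± 24.9 to 1628 ± 54.4 normalized reads (limma log2 fold change 1.15, SE 0.048, adjusted p = 4.1e-32). SPI1, the factor that sets the myeloid fate and opposes GATA1, had 638 ± 9.52 and 720.3 ± 35.7 normalized reads (log2 fold change 0.17, adjusted p = 0.00932), and its call was lost without RBP4 library 2 (log2 fold change 0.15, adjusted p = 0.0578). EGR1 went from 332 ± 3.76 to 282 ± 23.6 normalized reads (adjusted p = 0.0156), a call lost with scaling to equal totals, with DESeq2 and without RBP4 library 2. IRF8, a factor of the monocyte lineage singled out after its values were seen, had means of 0.692 and 0 normalized reads.

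Genes of stem and progenitor cells moved in both directions, with 10 of 20 tested, 3 raised, 4 lowered and 3 uncalled. MYC fell from 7504 ± 282 to 5464 ± 138 normalized reads (limma log2 fold change -0.46, adjusted p = 1.8e-22), HHEX, a homeobox factor of blood progenitors, from 1479.5 ± 47.8 to 1114.5 ± 55.0 and HOXB4 from 921 ± 38.9 to 717 ± 38.8. Of 9 megakaryocyte genes tested, 5 rose, 2 fell and 2 did not pass, where 24.5% of all genes tested were raised and 26.1% lowered. The most abundant, NBEAL2, a platelet granule gene, had 2569 ± 148 and 2789 ± 140 normalized reads in overlapping groups (log2 fold change 0.12, adjusted p = 0.00805, a call lost in 2 of 14 alternatives), and F2R, a thrombin receptor, had 649 ± 50.4 and 704 ± 26.4 (adjusted p = 0.0874). Next in abundance, ITGA2B, the platelet integrin alpha IIb, rose from 259 ± 19.8 to 421 ± 57.2 normalized reads (log2 fold change 0.69, adjusted p = 6.8e-10). The 2 that fell, singled out after their values were seen, were GP6 (log2 fold change -0.90) and CD9 (-0.27), both platelet membrane proteins.

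The most abundant markers of other cell types were low apart from KRT19 (106 and 105 CPM in the control and RBP4 libraries) and EPCAM (52.3 and 35.7 CPM). For T and NK cells they were CD3D (3.80 and 2.71 CPM), CD7 (2.63 and 0.924 CPM) and NKG7 (0.591 and 0.639 CPM). Mast cell and basophil markers were led by MS4A2 (2.82 and 1.02 CPM), PRG2 (1.014 and 0.700 CPM) and EPX (0.443 and 0.841 CPM). COL1A1 (7.38 and 11.8 CPM), PECAM1 (1.74 and 1.008 CPM) and COL1A2 (1.47 and 0.779 CPM) led those of fibroblasts and endothelium. SFN, the next epithelial marker in abundance, had 0.745 and 0.493 CPM. The 2 B cell markers analysed were CD79A (0.148 and 0.123 CPM) and CD79B (0.126 and 0.123 CPM).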
